A study of Mus musculus with 8 samples.

Results

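Immediate early transcription factors were followed through 6 h of Romidepsin in cultured mouse MDSCs. These myeloid-derived suppressor cells are immature and dampen T cell responses. The 10 genes were Nr4a1, Nr4a2, Fos, Fosb, Jun, Junb, Jund, Egr1, Egr2 and Ier2. They were taken by name from a count table of 26930 genes, in which all 10 were listed. Of these, 7 had enough reads to be tested, while Fosb, Jund and Egr2 did not pass the count filter. Libraries were made from poly(A) RNA of 2 groups of 4. The treated cells received Romidepsin, an inhibitor of class I histone deacetylases (HDACs), at 0.5 µM for 6 h, and the untreated cells did not. No vehicle is named in the labels. Both groups were C57BL/6 bone marrow cells that had grown in GM-CSF and IL-6, each at 40 ng/ml, and had been moved on day 4 to conditioned medium of TRAMP-C1, a mouse prostate tumour line. Both are labelled senescent-like, so the comparison holds no cells without that state.

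Immediate early genes are transcribed within minutes of a stimulus from promoters that need no newly made protein. Kinases of the MAP kinase pathways act on SRF with its ELK partners and on CREB, which sit at these promoters before the signal arrives. FOS and JUN proteins pair through leucine zippers to form AP-1, EGR proteins bind GC-rich sites through zinc fingers, and NR4A proteins are orphan nuclear receptors that act without a known hormone. In mouse myeloid cells Nr4a1 is needed for the Ly6C-low monocyte lineage, and AP-1 and EGR1 take part in macrophage differentiation and activation.

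After Romidepsin the group did not move in one direction. The orphan receptor genes Nr4a1 and Nr4a2 rose, by 4.21 ± 0.73 and 2.02 ± 0.62 on the log2 scale (treated over untreated, ± SE, n = 4 per group). Jun averaged 111 ± 79.2 CPM in treated cells and 273 ± 66.2 CPM in untreated cells (SD, n = 4 each), and lay lower in the treated library of every replicate number. Fos and Egr1 lay higher in the treated library of every number, while Junb and Ier2 lay higher in some numbers and lower in others. CPM are counts relative to library size, scaled between libraries by TMM. The unpaired fit used edgeR's quasi-likelihood test, adjusted after Benjamini and Hochberg over 12852 genes, with a threshold of 0.05. In it, 2 of the 7 tested genes were higher, none was lower and 5 did not pass. Over all genes, 20.3% were called higher and 16.2% lower. Before adjustment 1 member, Jun, was lower at the 0.05 level in edgeR, and DESeq2 and limma-voom each called it lower after adjustment. With the replicate number as a block, 4 of the 7 were higher (Nr4a1, Nr4a2, Fos and Egr1) and 1 was lower (Jun), where 21.2% and 20.8% of all genes were called. Without treated replicate 3, 3 were higher and 1 was lower in the unpaired fit, with 24.5% and 23.4% of all genes called. Housekeeping scaling gave 3 higher and none lower, with 39.2% and 5.59% of all genes called. The pairing by number rests on how the libraries vary, as the meaning of a number is not labelled. Separate cultures or animals are not named either, and p-values therefore speak of variation among these libraries alone, part or all of which may be technical.

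**Figure D1:**
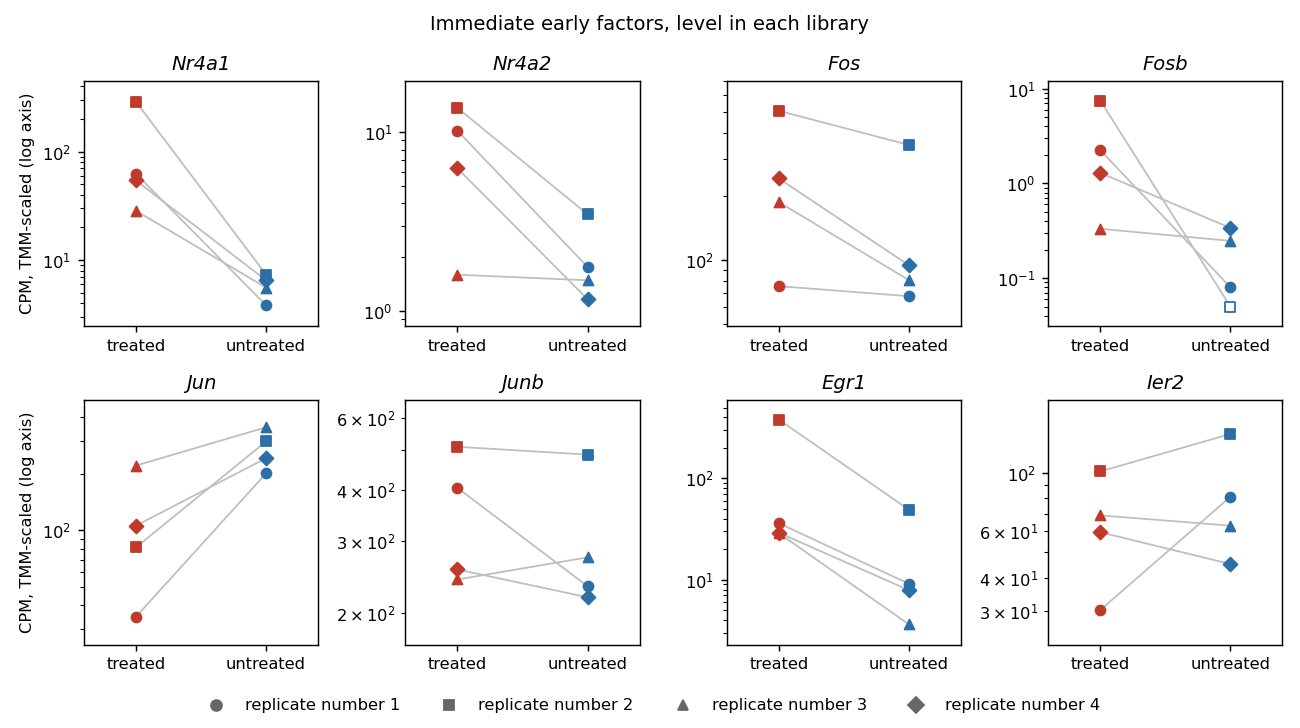
TMM-scaled CPM on a log axis for the 8 members with more than a few reads, in treated and untreated libraries, with lines joining libraries of the same replicate number. Every line for Nr4a1, Nr4a2, Fos and Egr1 ends higher in the treated library and every line for Jun ends lower; the open square is the count of 0 for Fosb in untreated replicate 2, drawn at 0.05 CPM.

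Libraries held 12996892 to 23176949 counts. Treated replicate 3 stood apart from the other treated libraries: on the first principal component, which held 68% of the variance, it lay at −1.17, against 50.3 to 105 in the other 3. Its mean correlation was 0.91 with the other treated libraries and 0.934 with the untreated ones. Changed calls of the 10 genes, and counts of lists that moved by 1.5 times or more, are also given without it. The labelled cell type was checked against 10 myeloid markers, all of which were detected, with Lyz2 at 12173 to 26102 CPM in treated cells and 27308 to 36996 CPM in untreated cells. Their summed level was 13776 to 32100 CPM in treated cells and 38479 to 45382 CPM in untreated cells, and 1 of the 10, Csf3r, was called lower. With the block 4 were lower (Csf3r, Csf1r, Ly6c2 and Lyz2), and without treated replicate 3, 2 were lower. The share of all genes called lower was 16.2% unpaired, 20.8% with the block and 23.4% without treated replicate 3. Csf3r was not called without the count filter (edgeR adjusted p = 0.171). Of the granulocyte genes in the list, S100a9 averaged 716 ± 632 CPM in treated cells and 1932 ± 1081 CPM in untreated cells, and Ly6g 5.32 ± 4.77 CPM in treated cells and 13.1 ± 6.65 CPM in untreated cells (SD, n = 4 each). In bulk RNA, fewer cells of a type and less RNA per cell cannot be told apart.

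Sequences upstream of 5 members are shown, since CREB and its relatives bind the cyclic AMP response element (CRE). Its core, searched as exact letters, was found in 4 of these sequences and not in that of Jun. Of the 10 members, 8 matched the RefSeq promoter table for GRCm38.p6, and Egr1 and Ier2 did not. The windows hold the 250 bases before a RefSeq transcript start, 5′ to 3′ on the gene's strand. For Nr4a1 this start lies inside the longer GENCODE span named with the gene spans. Capitals mark TGACG, the core of the CRE, or CGTCA, the same core read on the other strand. On GRCm38.p6 the windows are chr15:101266596-101266845 on the plus strand for Nr4a1, chr2:57124004-57124253 on the minus strand for Nr4a2 and chr7:19310046-19310295 on the minus strand for Fosb. Those of Fos and Jun are chr12:85473640-85473889 on the plus strand and chr4:95052223-95052472 on the minus strand.
Nr4a1: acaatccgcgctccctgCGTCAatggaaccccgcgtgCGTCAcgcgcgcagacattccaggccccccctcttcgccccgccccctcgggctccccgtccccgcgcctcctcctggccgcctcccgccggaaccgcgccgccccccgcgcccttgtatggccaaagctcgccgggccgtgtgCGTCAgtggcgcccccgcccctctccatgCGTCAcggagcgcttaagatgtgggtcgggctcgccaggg
Nr4a2: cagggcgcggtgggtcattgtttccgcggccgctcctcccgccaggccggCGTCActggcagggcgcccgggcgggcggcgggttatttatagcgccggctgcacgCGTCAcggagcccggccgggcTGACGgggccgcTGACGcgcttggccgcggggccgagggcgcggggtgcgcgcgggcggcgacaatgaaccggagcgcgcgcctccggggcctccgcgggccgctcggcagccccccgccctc
Fosb: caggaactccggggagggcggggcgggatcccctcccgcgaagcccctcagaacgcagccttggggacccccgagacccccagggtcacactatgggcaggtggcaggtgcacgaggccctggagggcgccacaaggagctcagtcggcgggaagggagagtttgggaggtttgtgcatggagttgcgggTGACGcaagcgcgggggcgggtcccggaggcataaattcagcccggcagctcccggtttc
Fos: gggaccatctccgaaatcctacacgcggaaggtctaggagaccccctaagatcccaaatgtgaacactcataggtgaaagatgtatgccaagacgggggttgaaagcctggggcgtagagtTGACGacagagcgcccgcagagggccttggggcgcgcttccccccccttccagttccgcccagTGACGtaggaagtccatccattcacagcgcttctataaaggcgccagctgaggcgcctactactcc
Jun: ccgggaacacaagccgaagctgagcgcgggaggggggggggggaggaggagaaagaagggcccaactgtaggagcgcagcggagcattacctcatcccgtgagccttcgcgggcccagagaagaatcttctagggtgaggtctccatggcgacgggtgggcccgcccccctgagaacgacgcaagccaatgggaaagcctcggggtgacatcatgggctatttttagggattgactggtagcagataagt

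Nr4a1 held 4 cores, at 233, 213, 69 and 40 bases before the start, and Nr4a2 held 4, at 200, 144, 123 and 111 bases. The window of Nr4a3, the third receptor gene of the family, also held 4. Of the 32851 promoter windows in the table, 17.8% held at least 1 core and 0.137% held 4 or more. Fos held 2 cores, 129 and 66 bases before its start, with a TATAAA element, found in 12.4% of windows, at 33 bases, and Fosb held 1 core at 60 bases. TATAAA also matched in Nr4a2, on the other strand, at 164 bases. Junb held 1 core at 106 bases, and none was found in the Jun window or in that of Jund. Egr2 had several windows. Its windows 3, 4 and 5, which overlap, held 2 cores each, and windows 1 and 2 held none. The full palindrome TGACGTCA, found in 1.55% of windows, and the AP-1 site TGANTCA, found in 6.75%, were in none of the windows of Nr4a1, Nr4a2, Fosb, Fos, Jun or Junb. The Jun window holds TGACATCA, which differs from TGACGTCA by 1 letter and is not counted by an exact search. The EGR site GCGNGGGCG occurred 1 time each in Nr4a1, Nr4a2 and Fosb and in 4.7% of windows. The CArG box of SRF (CC, 6 letters A or T, GG) and the letters AAAGGTCA were found in 1.47% and 1.34% of windows. Neither was in the 250 bases of Nr4a1, Nr4a2, Fosb, Fos, Jun or Junb, and Egr2 windows 2 to 5 held 1 CArG box each. All motifs were searched on both strands, and the element and its full palindrome overlap. The GC content was 74.4% for Nr4a1, 80% for Nr4a2, 68.8% for Fosb, 58.4% for Fos and 61.2% for Jun, with a median of 52.4% over all windows. A match describes the letters of the window and not a site in use.

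Most of the genes are short. On GRCm38, 8 of the 10 span 10 kb or less, as do 23.9% of 11741 tested protein-coding genes, whose median span is 23.6 kb with 9 exons. Jun, Jund and Ier2 have a single annotated exon each. The exceptions are Nr4a1 (chr15:101254269-101274795) at 20.5 kb and Nr4a2 (chr2:57106830-57124003) at 17.2 kb, both with up to 8 exons. Fos (chr12:85473890-85477273) spans 3.38 kb, Fosb (chr7:19302696-19310051) 7.36 kb and Jun (chr4:95049034-95052222) 3.19 kb. The heptamer TATTTAT, the core of AU-rich elements that shorten the life of many early response mRNAs, was annotated in the 3′UTR of 5 of the 10, with 2 copies in Fos and 1 each in Nr4a2, Fosb, Jun and Jund. It occurred in 30% of 11728 genes.

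Among the receptors, Nr4a1 showed the largest difference of the 7 tested members. Nr4a1, also called Nur77, had 62.5, 288, 28.5 and 54.2 CPM in treated replicates 1 to 4, against 3.84, 7.35, 5.59 and 6.53 CPM in untreated replicates 1 to 4. Every treated library lay above every untreated one, with replicate 2 the highest and replicate 3 the lowest of the treated. The means were 108 ± 121 CPM in treated cells and 5.83 ± 1.51 CPM in untreated cells (SD, n = 4 each). By number, the treated library held 16.3, 39.1, 5.1 and 8.3 times the untreated one. The difference of 4.21 ± 0.73 passed edgeR's quasi-likelihood test (adjusted p = 0.0039). Without treated replicate 2 it was 3.05 (edgeR adjusted p = 0.00192). Nr4a1 was the only one of the 7 tested members whose groups did not overlap, while 35.2% of all genes had groups that did not overlap.

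Nr4a2, or Nurr1, was expressed at lower levels than Nr4a1. It had 10.2, 13.7, 1.59 and 6.28 CPM in treated replicates 1 to 4, against 1.76, 3.47, 1.48 and 1.16 CPM in untreated replicates 1 to 4. Treated replicate 3 lay within the untreated range and the other 3 treated libraries lay above it. The means were 7.92 ± 5.19 CPM in treated cells and 1.97 ± 1.03 CPM in untreated cells (SD, n = 4 each), and the difference of 2.02 ± 0.62 passed (edgeR adjusted p = 0.033). With the replicate block it was 1.83 ± 0.44 (edgeR adjusted p = 0.0147). The unpaired call was lost when any of treated replicates 1, 2 and 4 or untreated replicates 1, 3 and 4 was left out, with differences of 1.87, 1.62 and 2.11 and of 1.97, 1.91 and 1.82 and edgeR adjusted p between 0.0572 and 0.0859. Without treated replicate 3 the difference was 2.33 (edgeR adjusted p = 0.00306).

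The third receptor gene, Nr4a3 (Nor1), is not one of the 10 but completes the family. It had 5.74, 22.1, 0.794 and 2.78 CPM in treated replicates 1 to 4, against 7.04, 11.1, 8.71 and 9.72 CPM in untreated replicates 1 to 4. Replicate 2 was higher in the treated library and the other 3 numbers were lower. Its difference of −0.22 ± 0.78 did not pass (edgeR adjusted p = 0.839), nor with the replicate block (edgeR adjusted p = 0.263).

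The make-up of the NR4A family was therefore described within each library, where scaling between libraries plays no part. Counts were divided by exonic length, and each gene's share of the summed level of the 3 genes was taken. Nr4a1 held 83.7%, 92.1%, 93.9% and 88.5% in treated replicates 1 to 4, against 40.5%, 43.7%, 46.7% and 49.4% in untreated replicates 1 to 4. Nr4a3 held 3.21 ± 1.37% in treated cells and 41.9 ± 2.3% in untreated cells (SD, n = 4 each). The Nr4a2 share was 7.23 ± 3.76% in treated cells and 13 ± 4.73% in untreated cells (SD, n = 4 each). Treated replicate 3, whose overall profile stood apart from the other treated libraries, held the highest Nr4a1 share of all 8. The shares of Nr4a1 and Nr4a3 did not overlap between groups, and those of Nr4a2 did. Shares within a library are tied, since a larger share of Nr4a1 leaves less for the other genes. In CPM Nr4a3 averaged 7.85 ± 9.71 in treated cells and 9.13 ± 1.7 in untreated cells (SD, n = 4 each). These shares are a description and were not tested.

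**Figure D2:**
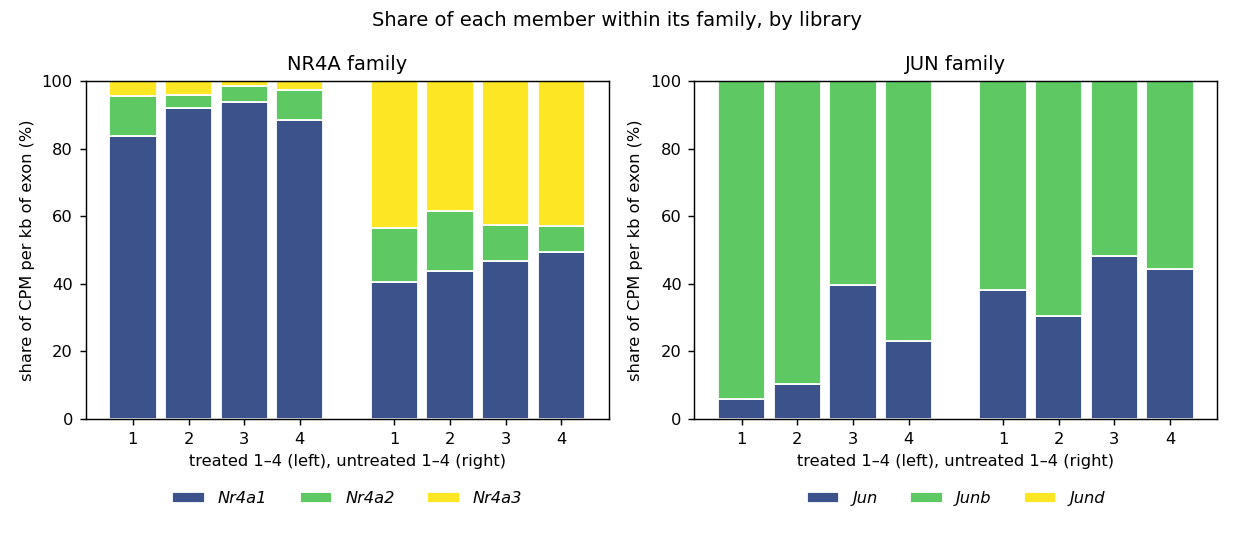
Share of each family's length-scaled level held by its members, in percent, for each treated library followed by each untreated library, in the NR4A and JUN families. Nr4a1 fills 83.7% to 93.9% of the NR4A bar in treated libraries and 40.5% to 49.4% in untreated ones, while Jun fills 5.83% to 39.7% of the JUN bar in treated libraries and 30.5% to 48.2% in untreated ones.

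The EGR genes were carried by Egr1. Egr1, a zinc finger factor of growth factor and stress responses, had 36.1, 380, 28.8 and 29.1 CPM in treated replicates 1 to 4, against 9.11, 49, 3.62 and 7.88 CPM in untreated replicates 1 to 4. Replicate 2 was far above the other libraries of its group in both groups, and treated replicates 1, 3 and 4 lay below untreated replicate 2. Within each number the treated library was higher, by 3.96, 7.77, 7.96 and 3.69 times. The unpaired difference of 2.77 ± 1.11 did not pass (edgeR adjusted p = 0.0769), and with the replicate block it was 2.45 ± 0.26 (edgeR adjusted p = 0.00137). Without both libraries of number 2 the unpaired difference was 2.18 ± 0.36 and passed (edgeR adjusted p = 0.0169). It was 0.85 without treated replicate 2 alone and 4.10 without untreated replicate 2 alone (edgeR adjusted p = 0.413 and 0.0358), and 3.07 without treated replicate 3 (edgeR adjusted p = 0.049).

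Egr2, which acts in macrophage and lymphocyte differentiation in mice, had 0 to 4 reads in every library of both groups and failed the count filter. In a fit of all genes without the filter it was not called (−0.09 ± 1.02, edgeR adjusted p = 0.959). Egr3 averaged 12.7 ± 15.6 CPM in treated cells and 3.67 ± 1.56 CPM in untreated cells (SD, n = 4 each) and did not pass (1.80 ± 0.75, edgeR adjusted p = 0.0856). Of the length-scaled level of Egr1, Egr2 and Egr3, Egr1 held 87.4 ± 3.41% in treated cells and 71.3 ± 15.5% in untreated cells (SD, n = 4 each), and the groups overlapped.

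Libraries of number 2 were also the highest in stromal markers. The summed level of 7 stromal and epithelial markers was 11.1, 178, 10.7 and 9.96 CPM in treated replicates 1 to 4, against 7.27, 61.2, 10.8 and 7.69 CPM in untreated replicates 1 to 4. Most of it in number 2 came from collagens, with Col1a2 at 85.4 CPM in treated replicate 2 and 23.2 CPM in untreated replicate 2. None of the 7 was at 0 in all libraries, and 1 averaged below 1 CPM. With the block 1 of the 5 tested was called higher (Col1a1), and unpaired none was, also before adjustment. The same 2 libraries held the most B cell marker RNA of their groups, at 435 CPM in treated replicate 2 and 921 CPM in untreated replicate 2, where the other libraries held 27.1 to 99.7 CPM in treated cells and 264 to 471 CPM in untreated cells. All 6 B cell markers were tested and 4 were called lower, or 6 with the block, where 16.2% and 20.8% of all genes were. The part of these cells in the levels of Egr1, Fos and Nr4a1 was not tested. With number 2 left out of both groups, 2 of the 7 were higher and none lower (8.43% and 4.79% of all genes). Nr4a1 differed by 3.18 ± 0.37 (edgeR adjusted p = 0.00821), and Nr4a2, by 2.04 ± 0.66, was not called (edgeR adjusted p = 0.0739). With the block and without number 2, 4 of the 7 were higher and 1 was lower, where 14.9% and 13.6% of all genes were called.

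Fos was among the most abundant members in both groups. It had 75.4, 507, 188 and 243 CPM in treated replicates 1 to 4, against 67.6, 350, 80.5 and 94.6 CPM in untreated replicates 1 to 4. The groups overlapped widely, with replicate 2 the highest in each, and within each number the treated library was higher by 1.11, 1.45, 2.34 and 2.57 times. The unpaired difference of 0.77 ± 0.66 did not pass (edgeR adjusted p = 0.372). With the replicate block it was 0.82 ± 0.25 and passed (edgeR adjusted p = 0.0324). The blocked difference was 0.92 without both libraries of number 2 (edgeR adjusted p = 0.0348) and 0.68 without both of number 3 (edgeR adjusted p = 0.106). The unpaired one was 0.19 without treated replicate 2 and 1.65 without untreated replicate 2 (edgeR adjusted p = 0.843 and 0.062).

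Fosb, whose protein pairs with JUN proteins as FOS does, had few reads. Its counts were 39, 118, 5 and 20 in treated replicates 1 to 4, against 1, 0, 3 and 7 in untreated replicates 1 to 4. Treated replicates 1, 2 and 4 lay above all untreated libraries and treated replicate 3 did not. In CPM this was 2.24, 7.49, 0.331 and 1.29 in treated cells and 0.0799, 0, 0.247 and 0.338 in untreated cells. Since Fosb failed the count filter through its low counts in most libraries, it was read from a fit of all 26930 genes without a filter, in which 9.4% of genes were called higher. There it was higher by 3.89 ± 0.99 (edgeR adjusted p = 0.019), and by 3.33 ± 0.95 with the block (edgeR adjusted p = 0.0305), where 11.7% of genes were called higher. Without both libraries of number 2 the difference was 2.42 and was not called (edgeR adjusted p = 0.0515). The call was also lost without untreated replicate 1 or untreated replicate 3, at 3.68 and 4.06 (edgeR adjusted p = 0.0662 and 0.061), and the difference was 2.75 without treated replicate 2 (edgeR adjusted p = 0.0253) and 4.23 without treated replicate 3 (edgeR adjusted p = 4.81e-04). Per exonic length Fos held 99.5 ± 0.464% of the summed Fos and Fosb level in treated cells and 99.9 ± 0.0625% in untreated cells (SD, n = 4 each).

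The JUN genes showed another pattern. Jun, the founding AP-1 subunit, had 34.8, 81.3, 221 and 106 CPM in treated replicates 1 to 4, against 201, 297, 353 and 242 CPM in untreated replicates 1 to 4. Treated replicates 1, 2 and 4 lay below all untreated libraries, and treated replicate 3 lay within their range. The treated library held 0.173, 0.274, 0.626 and 0.438 times the untreated one of the same number. The unpaired difference of −1.30 ± 0.48 did not pass (edgeR adjusted p = 0.0581). It was −1.56 ± 0.31 with the replicate block (edgeR adjusted p = 0.00774) and −1.91 without treated replicate 3 (edgeR adjusted p = 0.00414). The DESeq2 Wald test and limma-voom, run unpaired, called it lower at −1.34 and −1.57 (DESeq2 adjusted p = 0.0149, limma-voom adjusted p = 0.0348), as they did 21.8% and 18.7% of all genes. Without both libraries of number 2 the unpaired difference was −1.14 (edgeR adjusted p = 0.212), and with the block it was −1.45 (edgeR adjusted p = 0.0185). Jun shares 232 exonic bases with the antisense gene Junos, which had 23 to 106 reads in treated libraries and 58 to 165 in untreated ones, against 606 to 3339 reads of Jun in treated libraries and 2516 to 4998 in untreated ones.

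Junb, which can restrain as well as form AP-1 activity, was the most abundant member per length. It had 405, 510, 242 and 256 CPM in treated replicates 1 to 4, against 233, 488, 274 and 219 CPM in untreated replicates 1 to 4. The groups overlapped, number 3 was lower in the treated library and the other numbers were higher. Its difference of 0.22 ± 0.34 did not pass (edgeR adjusted p = 0.627), nor with the block (0.22 ± 0.22, edgeR adjusted p = 0.435), and it was −0.01 without treated replicate 2. Junb shares 173 exonic bases with Prdx2 on the opposite strand, and the strand setting of the counting is not given in the sources used here.

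Jund had 0 or 1 read in every library of both groups, and the fit without a filter did not call it (−0.18 ± 1.37, edgeR adjusted p = 0.951). Its exon overlaps the antisense gene Gm11175 over 877 bases, and that gene had 0 to 1 read in treated libraries and 0 to 4 in untreated ones. The level of Jund cannot be read from these counts. Among the JUN genes as counted, Jun held 5.83%, 10.3%, 39.7% and 23% of the length-scaled level in treated replicates 1 to 4, against 38.3%, 30.5%, 48.2% and 44.3% in untreated replicates 1 to 4. Treated replicate 3 lay within the untreated range and the other 3 below it. Junb held 80.3 ± 15.2% in treated cells and 59.7 ± 7.71% in untreated cells (SD, n = 4 each).

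Ier2 encodes a short nuclear protein of the early response. It had 30.2, 101, 68.9 and 59.5 CPM in treated replicates 1 to 4, against 81, 140, 63 and 45.1 CPM in untreated replicates 1 to 4. Numbers 1 and 2 were lower in the treated library and numbers 3 and 4 were higher. The difference of −0.34 ± 0.41 did not pass (edgeR adjusted p = 0.532), and its sign changed with the scaling to housekeeping genes (0.42) and without untreated replicate 2 (0.05).

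**Figure D3:**
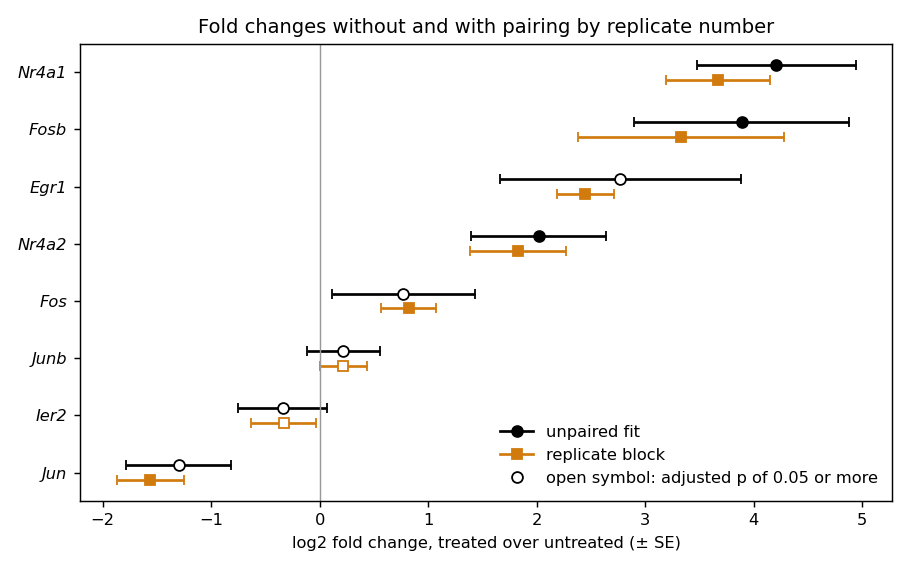
Log2 fold change of treated over untreated cells for the tested members and Fosb, with standard errors, in the unpaired fit and in the fit with the replicate block (Fosb from the fits without a count filter). Nr4a1 lies at 4.21 unpaired and 3.67 with the block, Jun at −1.30 and −1.56, and the error of Egr1 is 1.11 unpaired and 0.26 with the block.

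Per kilobase of exon, the order of the levels differed between the groups, with wide errors. In treated cells the mean CPM per kb was 154 ± 55.6 for Junb, 108 ± 77.8 for Fos, 42.7 ± 19.3 for Ier2, 34.7 ± 24.8 for Jun, 30.8 ± 34.3 for Nr4a1, 26.4 ± 38.9 for Egr1, 1.95 ± 1.28 for Nr4a2 and 0.455 ± 0.513 for Fosb (SD, n = 4 each). In untreated cells it was 132 ± 54.3 for Junb, 85.7 ± 20.8 for Jun, 63 ± 57.5 for Fos, 54.1 ± 27.2 for Ier2, 3.88 ± 4.72 for Egr1, 1.66 ± 0.43 for Nr4a1, 0.485 ± 0.254 for Nr4a2 and 0.0266 ± 0.0247 for Fosb (SD, n = 4 each). Nr4a1 stood beside Jun in treated cells and far below it in untreated cells. In treated cells the means of Ier2, Jun, Nr4a1 and Egr1 lay within each other's SD, and in untreated cells so did those of Fos and Ier2. Jun lay above Ier2 in all 4 untreated libraries.

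The genes most like the 2 called receptors were sought among 9860 others, by the root mean square difference of their log2 CPM from the untreated mean over the 8 libraries. For Nr4a1 they were Hspa1b (0.44), Mmp17 (0.51) and Tspyl4 (0.52). Hspa1b, an inducible heat shock protein gene, averaged 23.1 ± 15.5 CPM in treated cells and 1.63 ± 0.586 CPM in untreated cells (SD, n = 4 each). It has a near-identical copy, Hspa1a, so its counts are uncertain. For Nr4a2 they were Extl1 (0.26), Xrcc3 (0.28) and Ciart (0.31), of which Xrcc3 acts in recombination repair and Ciart in the circadian clock. They were chosen for their likeness, so no test applies.

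Of 14 tested other AP-1 and bZIP genes, 1 was higher and 2 were lower, where 20.3% and 16.2% of all genes were. Their median log2 fold change was −0.31, against 0.01 over all genes. Mafg, a small MAF protein that dimerises with other bZIP factors, fell to 53.8 ± 11.2 CPM in treated cells, against 127 ± 28 CPM in untreated cells (SD, n = 4 each, −1.23 ± 0.21, edgeR adjusted p = 0.00368). Fosl2, which encodes the FOS relative FRA2, fell by 0.62 ± 0.20 (edgeR adjusted p = 0.0352). Jdp2, which encodes a JUN-binding repressor of AP-1, rose by 1.19 ± 0.26 (edgeR adjusted p = 0.00915). With the replicate block 1 was higher and 6 were lower, and without treated replicate 3 the counts were 1 and 7. Without both libraries of number 2, or without any 1 of treated replicates 1, 2 and 4 and untreated replicate 1, 1 was lower. Atf3, a stress-induced bZIP factor, had 40.1, 67.3, 295 and 109 CPM in treated replicates 1 to 4, against 250, 314, 527 and 333 CPM in untreated replicates 1 to 4, with treated replicate 3 again inside the untreated range. Its difference of −1.48 ± 0.57 did not pass (edgeR adjusted p = 0.0666). It was −1.83 ± 0.31 with the block (edgeR adjusted p = 0.00462) and −2.33 without treated replicate 3 (edgeR adjusted p = 0.00205). With scaling to housekeeping genes, which moved the differences by a median of 0.71 over all genes, 4 of the 14 were higher and 1 was lower. With that scaling 39.2% of all genes were higher and 5.59% lower.

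**Figure D4:**
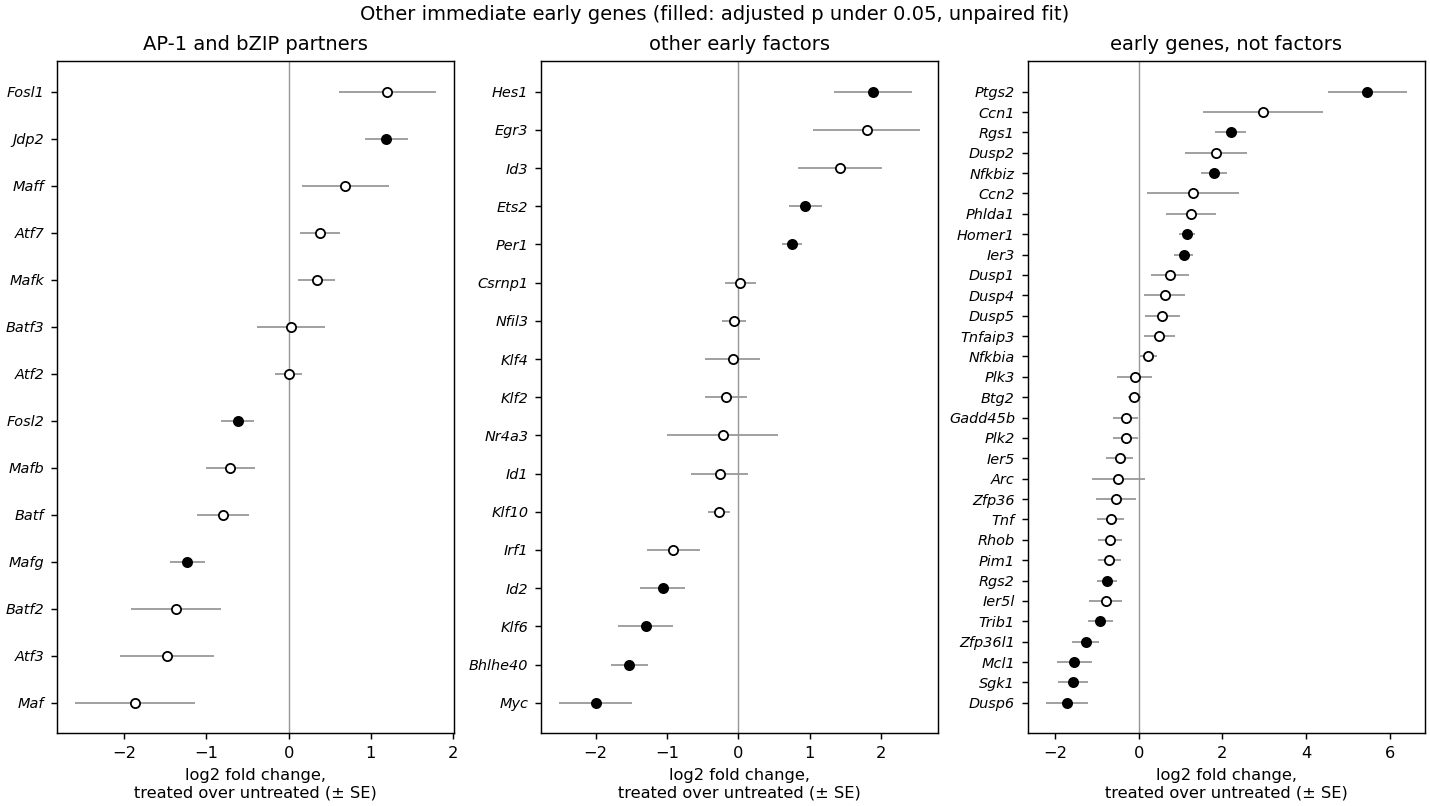
Log2 fold change of treated over untreated cells with its standard error in the unpaired fit, for the tested genes of 3 lists: 14 AP-1 and bZIP genes, 17 other early transcription factors and 31 early genes of other kinds. Filled points passed the test; each panel holds genes on both sides of 0, with medians of −0.31, −0.17 and −0.10.

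Of 17 tested genes among other immediate early transcription factors, 3 were higher and 4 lower, with a median of −0.17. These counts lie near the 20.3% higher and 16.2% lower among all genes. Bhlhe40, a helix-loop-helix repressor, fell to 30.1 ± 6.8 CPM in treated cells, against 87.1 ± 28.7 CPM in untreated cells (SD, n = 4 each, −1.53 ± 0.26, edgeR adjusted p = 0.00349). Myc, the growth regulator, fell to 4.13 ± 0.81 CPM in treated cells, against 16.5 ± 12.7 CPM in untreated cells (SD, n = 4 each, edgeR adjusted p = 0.0166). The zinc finger gene Klf6 fell by 1.30 ± 0.38 (edgeR adjusted p = 0.0259). Id2, an inhibitor of helix-loop-helix factors, fell by 1.06 ± 0.32 (edgeR adjusted p = 0.0289). Per1 of the circadian clock rose by 0.76 ± 0.14, Ets2 of the ETS family by 0.94 ± 0.23 and the Notch target Hes1 by 1.89 ± 0.55 (edgeR adjusted p = 0.00542, 0.0149 and 0.0256). Hes1 rested on few reads, at 1.61 ± 0.681 CPM in treated cells and 0.444 ± 0.25 CPM in untreated cells (SD, n = 4 each). The count filter may have kept Hes1 for its treated libraries alone, so its call is weak. With the block, 4 were higher and 5 lower, where 21.2% and 20.8% of all genes were. Without treated replicate 3, 5 were higher, and without any 1 of treated replicates 1, 2 and 4 or untreated replicate 3, 2 were lower. Without both libraries of number 2, 1 was lower. With housekeeping scaling 5 were higher and 1 was lower, where 39.2% and 5.59% of all genes were.

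Of 31 early response genes that encode no transcription factor, 5 were higher and 6 lower, with a median of −0.10. These counts lie near the shares over all genes, 20.3% higher and 16.2% lower. Rgs1, a brake on G protein signalling, rose to 131 ± 53.5 CPM in treated cells, against 28.7 ± 10.6 CPM in untreated cells (SD, n = 4 each, 2.20 ± 0.37, edgeR adjusted p = 0.00362). The scaffold gene Homer1 rose by 1.16 ± 0.19 (edgeR adjusted p = 0.00283). Ptgs2, Nfkbiz and Ier3 were the other higher genes. Sgk1, a serum-induced kinase gene, fell by 1.57 ± 0.35 and Zfp36l1, whose protein binds AU-rich elements, by 1.26 ± 0.32 (edgeR adjusted p = 0.00993 and 0.0151). Dusp6, which encodes a phosphatase of ERK, fell by 1.71 ± 0.51 (edgeR adjusted p = 0.0294), with overlapping groups. Untreated replicate 1 held 318 CPM, and without it the difference was −1.08 and was not called (edgeR adjusted p = 0.0599), nor was it without the count filter (edgeR adjusted p = 0.0966). With the block 8 were higher and 8 lower, where 21.2% and 20.8% of all genes were. Without treated replicate 1 or 4, or without both libraries of number 2, 2 were lower, and without untreated replicate 2 or 3, 3 were lower. With housekeeping scaling 11 were higher and 2 lower, where 39.2% and 5.59% of all genes were.

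Of 31 genes for the kinases and for the SRF and CREB factors upstream of these promoters, 8 were higher and 11 lower. Among all genes 20.3% and 16.2% were, and the median of the list was −0.18. Map2k7, a kinase that activates JNK, fell to 13.7 ± 2.91 CPM in treated cells, against 40.3 ± 3.14 CPM in untreated cells (SD, n = 4 each, −1.55 ± 0.19, edgeR adjusted p = 0.00112). Mapk8, which encodes JNK1, a kinase of the JUN protein, rose to 47.6 ± 15.8 CPM in treated cells, against 14.6 ± 1.2 CPM in untreated cells (SD, n = 4 each, 1.70 ± 0.26, edgeR adjusted p = 0.0024). The CREB relative Atf1 fell by 1.39 ± 0.17 and the coactivator gene Crebbp by 1.62 ± 0.21 (edgeR adjusted p = 0.00124 and 0.00165). Elk1, which encodes an SRF partner, rose by 0.87 ± 0.15 (edgeR adjusted p = 0.00375), while the related Elk3 and Elk4 were called lower. Mapk3, a kinase gene of the ERK pathway, did not pass (−0.39 ± 0.18, edgeR adjusted p = 0.119). With housekeeping scaling the list had 10 higher and 4 lower, where 39.2% and 5.59% of all genes were called. Without both libraries of number 2 it had 4 higher and 6 lower, where 8.43% and 4.79% of all genes were called.

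Smaller lists followed proteins that act with the members. Of 7 partners, corepressors and ubiquitin ligases, 1 was higher and 3 were lower, where 20.3% and 16.2% of all genes were. Their median was −0.52. Rxra and Rxrb, whose proteins pair with NR4A1 and NR4A2, fell by 1.01 ± 0.26 and 0.63 ± 0.13 (edgeR adjusted p = 0.016 and 0.008). Itch, which encodes a ubiquitin ligase of JUN proteins, fell by 0.90 ± 0.21, and Fbxw7, which encodes another, rose by 0.59 ± 0.15 (edgeR adjusted p = 0.011 and 0.0146). Without both libraries of number 2 none of the 7 was called, and with housekeeping scaling 1 was higher and none lower. Of 11 polymerase pause release genes, 1 was higher (Nelfe) and 1 lower (Nelfb), both subunits of the pausing complex NELF, with a median of 0.05. Without treated replicate 3, 2 were higher and 2 lower, and with housekeeping scaling 6 were higher and none lower. The shares of all genes were 24.5% and 23.4% without treated replicate 3 and 39.2% and 5.59% with housekeeping scaling. They were 8.43% and 4.79% without both libraries of number 2.

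Of 13 tested textbook AP-1 targets, 2 were higher and 1 was lower, where 20.3% and 16.2% of all genes were. Their median was 0.06. The collagenase gene Mmp13 rose to 141 ± 25.7 CPM in treated cells, against 37.3 ± 13.9 CPM in untreated cells (SD, n = 4 each, 1.91 ± 0.27, edgeR adjusted p = 0.00201). Ccnd1, the cyclin D1 gene, fell by 3.54 ± 0.90 (edgeR adjusted p = 0.0165). It had 3.37 to 7.94 CPM in treated libraries, against 200, 29.2, 19.6 and 10.9 CPM in untreated replicates 1 to 4. Without untreated replicate 1 the difference was −1.83 (edgeR adjusted p = 0.0145), with the block it was −2.56 (edgeR adjusted p = 0.0311), and without the count filter it was not called (edgeR adjusted p = 0.0831). With the block 3 were higher and 2 lower, where 21.2% and 20.8% of all genes were. With housekeeping scaling 6 were higher and 1 lower, where 39.2% and 5.59% of all genes were. Without both libraries of number 2 none was lower, where 4.79% of all genes were. Without treated replicate 2 or untreated replicate 3 or 4, 1 was higher, and without treated replicate 1, 2 were lower.

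Of the 4 class I HDAC genes, whose products Romidepsin inhibits, 2 passed the test, both higher, where 20.3% of all genes were higher. Hdac1 rose to 118 ± 25.6 CPM in treated cells, against 60.7 ± 5.23 CPM in untreated cells (SD, n = 4 each, 0.96 ± 0.18, edgeR adjusted p = 0.00512). Hdac3 rose by 0.93 ± 0.20 (edgeR adjusted p = 0.00898). With the block Hdac8 was also called lower (−0.79, edgeR adjusted p = 0.049), and without treated replicate 3 the list had 3 higher and 1 lower.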

How the data were processed

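RNA of 8 libraries, 4 treated and 4 untreated, was analysed from whole-number raw counts per Ensembl gene, as the authors deposited them. The processing used GRCm38 (mm10) with STAR 2.5.2a, FastQC and DESeq2, per the submitters' processing notes. How reads were counted, including strand and annotation, is not given in the sources used here, so genes that overlap on opposite strands are uncertain. Of 26930 identifiers, 26881 matched a symbol. Library totals ranged from 12996892 to 23176949 counts, so a gene at 1 CPM rests on few reads.

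Counts were tested with edgeR 4.0.16 in R 4.3.3 (filterByExpr, 12852 genes, TMM, robust two-sided quasi-likelihood F test, Benjamini-Hochberg adjustment, threshold 0.05), treated over untreated. Groups and replicate numbers came from the titles. Libraries of the same number deviated from their group means together (correlations 0.525, 0.27, 0.457 and 0.171 for numbers 1 to 4, the highest between different numbers being 0.0467, bound 0.1), so libraries were taken as paired by number, on the data and not on a label. The reported fit leaves the pairing out, and the block is given where it changes the call of a member or moves the count of a list by 1.5 times or more.

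Alternatives were DESeq2 size factors, library size, upper-quartile and 20-gene housekeeping scaling, no count filter, a mean of at least 10 CPM, limma-voom (limma 3.58.1), a Wald test in DESeq2 1.42.0, the replicate block, each library left out (on the same genes) and both libraries of number 3 left out. Leaving out number 2, and the block without a filter or without numbers 2 or 3, were added after seeing the data. The members and lists were chosen with earlier results of these data known, so they support nothing on their own.

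Named from each list were up to 4 called genes with the smallest p in the direction of most calls, 2 in the other direction and 2 uncalled genes of highest CPM; the text names a part of these. Other genes were named with their values in view. Values of some listed genes are not reported here. The 3 genes nearest to each called member had a mean of at least 5 CPM, with 0.5 CPM added before log2. Exonic lengths and coordinates are from GENCODE on GRCm38. The fit was tested on simulated data.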

Additional observations from a re-analysis of the deposited data

Results flagged for a closer look

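In groups of 4, a library was examined for a gap to its nearest neighbour large for the group's range by Dixon's 95% criterion. This was done in 18 groups of values, and chance flags about 1 in 20 such groups. All 4 values that stood out came from libraries of number 2. Nr4a1 was at 288 CPM in treated replicate 2, with a gap of 0.869 of the range. Egr1 was at 380 CPM in treated replicate 2 (0.979) and at 49 CPM in untreated replicate 2 (0.879). Fos was at 350 CPM in untreated replicate 2 (0.905). The same libraries were the highest of their groups in summed stromal and epithelial markers, at 178 CPM in treated replicate 2 and 61.2 CPM in untreated replicate 2, and the part of those cells was not tested.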

How the results depend on the processing

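Nr4a1 was called higher under every alternative run. Of the other results with a value to compare, the following changed. Over all genes, 2610 were higher and 2080 lower, and the counts were 5036 and 719 with housekeeping scaling, 1368 lower with library size alone, and 1084 and 615 without both libraries of number 2. With each library left out they ranged from 1716 to 3146 higher and from 1183 to 3010 lower.

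For the members, the replicate block called Fos (0.82), Egr1 (2.45) and Jun (−1.56), so that 4 were higher and 1 lower, and did so again without number 2 (Fos 0.92, Egr1 2.26, Jun −1.45). Without number 3 the block gave 2.29 for Egr1 and −1.86 for Jun, with 1 lower. Unpaired, Jun was called at −1.34 by DESeq2, −1.57 by limma-voom and −1.74 without number 3, and Egr1 at 3.75 with housekeeping scaling and 2.18 without number 2. DESeq2 gave Egr1 no adjusted p. Nr4a2 was not called by limma-voom (1.81) or without number 2 (2.04), nor Fosb without number 2 (2.42). Ier2 was at 0.42 with housekeeping scaling. A minimum of 10 CPM, which leaves Nr4a2 out, and limma-voom gave 1 higher member. With each library left out the ranges were 3.05 to 4.50 for Nr4a1, 1.62 to 2.44 for Nr4a2, 0.19 to 1.65 for Fos, 2.75 to 4.56 for Fosb, −1.91 to −1.01 for Jun, −0.01 to 0.54 for Junb, 0.85 to 4.10 for Egr1 and −0.64 to 0.05 for Ier2, with 1 to 3 members higher and 0 to 1 lower.

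Among lists, AP-1 and bZIP genes had 2 higher and 1 lower with library size, 4 and 1 with housekeeping scaling, and 6 lower with DESeq2 or the block, 5 with limma-voom or without number 3 and 1 without number 2. Other early transcription factors had 5 higher and 1 lower with housekeeping scaling, 5 higher with DESeq2 and 1 lower without number 2. Early genes of other kinds had 11 and 2 with housekeeping scaling, 8 higher with the block and 2 lower without number 2. Upstream genes had 6 lower with library size, 4 with housekeeping scaling, and 4 higher and 6 lower without number 2. Partners had 0 higher without a filter or number 2, and 0 lower with housekeeping scaling or without number 2. Pause release genes had 4 and 0 with library size, 6 and 0 with housekeeping scaling, 2 lower with DESeq2 and 0 lower without number 2. AP-1 targets had 6 higher with housekeeping scaling, 1 and 0 without a filter or by limma-voom, 2 lower with DESeq2 or the block and 0 without number 2. Class I HDACs had 1 lower with the block or without number 3. With each library left out the lists gave, in the same order, 1 to 2 higher and 1 to 7 lower, 2 to 5 and 2 to 5, 5 to 6 and 2 to 7, 7 to 9 and 8 to 10, 1 and 3 to 4, 1 to 2 and 1 to 2, 1 to 2 and 1 to 2, and 2 to 3 and 0 to 1.

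Without division by length, Fos held 98.7% of its family in treated cells and 99.8% in untreated cells, and in untreated cells Jun held 48.2% and Nr4a1 34.2%. Nr4a3 then held 54.3% in untreated cells and was the largest of its family. Per length, Nr4a1 held 45% there and Nr4a3 41.9%, so their order depends on the scale. The cause of these changes was not tested. Few reads limit Fosb and Egr2; for Jund the reason for its 0 or 1 read was not tested.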
